A study of Mus musculus with 31 samples.

Results

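The 10 genes described here are those of the insulin-like growth factor (IGF) system that were listed for study by name: the ligands Igf1 and Igf2, the receptors Igf1r and Igf2r, and the binding proteins Igfbp2, Igfbp3, Igfbp4, Igfbp5, Igfbp6 and Igfbp7. All 10 were among the 16301 genes of the bulk RNA table and among the 27998 genes of the single-cell RNA matrix, and 67 of the 96670 single-cell ATAC peaks lay within 2 kb of one of them. The cells came from the spinal cord of mice on a C57BL/6 background, and most samples are labelled as ependymal cells, the ciliated cells that line the central canal and act as a reserve of neural stem cells. The study asked what these resident stem cells can become after injury.

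Bulk RNA was sequenced from about 1k sorted cells per library with Smart-seq2. There were 2 libraries for each of 6 groups: Foxj1-Olig2-tdT uninjured, at 1 day and at 5 days post injury (dpi), and Foxj1-tdT uninjured, at 1 dpi and at 5 dpi. In this model, as known from the study, an inducible Cre recombinase driven by the Foxj1 promoter marks ependymal cells and their progeny with the red protein tdTomato in all groups, so injured groups hold both ependymal cells and cells derived from them. In Foxj1-Olig2-tdT mice the same recombination also switches on a transgene for Olig2, the transcription factor that specifies the oligodendrocyte lineage. Single-cell RNA came from 6 samples (Foxj1-Olig2-tdT and Foxj1-tdT, each uninjured and at 2 and 4 weeks post injury), and single-cell ATAC from 1 uninjured sample of non-neuronal cells. The labels give no age or sex, and they name no animal for a replicate, so the p-values rest on library-to-library spread that could be technical.

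IGF1 and IGF2 are secreted growth factors that signal through the receptor tyrosine kinase IGF1R to the PI3K and AKT pathway and to the MAP kinase pathway. IGF2R, the mannose 6-phosphate receptor, takes up IGF2 and sends it to the lysosome. The binding proteins hold IGFs outside the cell and can block or prolong their action. In the central nervous system IGF1 is known as a survival and differentiation factor for the oligodendrocyte lineage.

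The promoters of the 3 binding-protein genes that the results below turn on are printed here with the RefSeq sequence of build GRCm38.p6, 300 bases each, from 250 before to 50 after the annotated start, 5′ to 3′ on the gene's strand. Capitals mark CANNTG, the E-box letters that basic helix-loop-helix factors such as OLIG2 can bind. The motif reads the same on both strands.
Igfbp3 (chr11:7213874-7214173, minus strand): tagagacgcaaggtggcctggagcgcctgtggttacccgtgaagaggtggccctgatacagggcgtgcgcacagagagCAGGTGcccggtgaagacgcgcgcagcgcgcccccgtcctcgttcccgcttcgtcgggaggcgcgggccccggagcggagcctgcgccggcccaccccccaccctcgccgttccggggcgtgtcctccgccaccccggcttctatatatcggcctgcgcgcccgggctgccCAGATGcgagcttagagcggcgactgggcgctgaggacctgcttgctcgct
Igfbp2 (chr1:72824230-72824529, plus strand): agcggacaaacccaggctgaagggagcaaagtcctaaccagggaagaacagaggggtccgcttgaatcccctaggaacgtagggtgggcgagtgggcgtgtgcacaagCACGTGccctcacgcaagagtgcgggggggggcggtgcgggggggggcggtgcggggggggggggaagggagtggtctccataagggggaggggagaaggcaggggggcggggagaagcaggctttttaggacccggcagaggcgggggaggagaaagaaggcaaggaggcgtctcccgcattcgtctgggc
Igfbp6 (chr15:102143936-102144235, plus strand): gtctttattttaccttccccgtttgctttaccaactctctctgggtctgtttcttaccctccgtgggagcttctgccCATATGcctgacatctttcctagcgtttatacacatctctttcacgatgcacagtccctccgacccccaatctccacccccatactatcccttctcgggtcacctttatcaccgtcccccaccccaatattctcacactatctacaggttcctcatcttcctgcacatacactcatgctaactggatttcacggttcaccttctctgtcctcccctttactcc
The Igfbp3 window held 2 such matches, CAGGTG and CAGATG, the Igfbp2 window, the first of 2 that RefSeq gives for this gene, held 1, CACGTG, and the Igfbp6 window held 1, CATATG. Of 32851 mouse promoter windows of this length, 72.3% held at least 1 match and 39.6% held at least 2, so these counts are common. The Igfbp3 and Igfbp2 windows lay inside single-cell ATAC peaks and the Igfbp6 window in none.

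The targeted factor was checked first. Olig2 was read at 1690.3 to 3960.9 normalised counts in the 6 Foxj1-Olig2-tdT libraries and at 2.2 to 195.2 in the 6 Foxj1-tdT libraries. Every library thus matched the genotype of its label, and injury and time were not checked by this. Within Foxj1-tdT Olig2 was higher at 5 dpi than uninjured (log2 fold change 3.46, limma, adjusted p = 0.027). Foxj1, the ependymal gene that gives the line its name, was read in all 12 libraries, at 933.9 to 3386.6. Foxj1 was lower at 5 dpi than uninjured in both genotypes. Its log2 fold change was -1.78 in Foxj1-Olig2-tdT (limma, adjusted p = 3.04e-05) and -1.18 in Foxj1-tdT (limma, adjusted p = 0.000892). At 1 dpi it was lower than uninjured in Foxj1-tdT (-1.22, limma, adjusted p = 0.000551). It was then higher in Foxj1-Olig2-tdT than in Foxj1-tdT (0.864, limma, adjusted p = 0.0307). The sum of a library's values was 12601290 to 13878102. Replicates correlated at 0.989 in uninjured Foxj1-tdT and at 0.864 to 0.928 in the other 5 groups, across genes on the log2 scale, so the uninjured Foxj1-tdT pair was the closest.

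All 10 genes passed the filter on low values and were tested with 15811 genes in 1 limma fit over the 12 libraries. Fold changes and their standard errors (SE) are on the log2(value + 1) scale, which understates the change of low genes, and a call is a Benjamini-Hochberg adjusted p under 0.05 over all 15811 genes. With 2 libraries a group, a difference that misses this threshold is not shown to be absent.

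Igfbp2, whose product binds IGFs and also integrins, separated the 2 genotypes at every time. In Foxj1-Olig2-tdT libraries it stood at 1931.3 and 1253.6 normalised counts uninjured, then 1177.7 and 2339.4 (1 dpi) and 921.8 and 1581.9 (5 dpi). In Foxj1-tdT libraries it stood at 323.4 and 333.5 uninjured, then 309.4 and 361.7 (1 dpi) and 408.2 and 178.2 (5 dpi). The lowest Foxj1-Olig2-tdT library lay above the highest Foxj1-tdT library, and no change with injury passed the test in either genotype. The log2 fold change between genotypes was 2.24 ± 0.46 uninjured (limma, adjusted p = 0.0178), 2.31 ± 0.46 at 1 dpi (adjusted p = 0.0372) and 2.16 ± 0.46 at 5 dpi (adjusted p = 0.0177).

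Of the 10 IGF genes, 1 rose and 0 fell between genotypes uninjured, where 7.79% of all genes were called (4.72% higher and 3.07% lower). At 1 dpi 1 rose and 0 fell, where 1.84% of all genes were called (1.29% higher and 0.55% lower). At 5 dpi 1 rose and 1 fell, where 9.23% were called (3.36% higher and 5.88% lower). The median log2 fold change of the 10 was 0.27, 0.06 and 0.35 at these times, against 0, -0.02 and 0.01 for all tested genes. Leaving out either uninjured Foxj1-tdT library or the first uninjured Foxj1-Olig2-tdT library ended the uninjured call of Igfbp2 (adjusted p = 0.134, 0.124 and 0.0685). At 1 dpi leaving out 7 of the 12 libraries, each in turn, ended the call (adjusted p up to 0.157), and at 5 dpi the second 5 dpi library of either genotype did so (0.152 for Foxj1-Olig2-tdT and 0.128 for Foxj1-tdT), with log2 fold changes of 1.56 to 2.80 at these 2 times. The summed markers of oligodendrocyte progenitors (9 of 10 in the table) also differed by genotype, at 0.021% to 0.0765% of a Foxj1-Olig2-tdT library and 0.00126% to 0.0357% of a Foxj1-tdT library. That sum includes Olig2 itself. In the uninjured Foxj1-Olig2-tdT pair 5 and 4 of the 9 genes were listed at 0, and in the uninjured Foxj1-tdT pair 6 and 5. Pdgfra, at 2.1 and 0, and Sox10, at 0 and 1, were at or near 0 in the Foxj1-Olig2-tdT pair. Ptprz1, a receptor phosphatase on the same list, was at 592.7 and 1119.9 there, against 139.5 and 114.5 in the uninjured Foxj1-tdT pair, and so differed by genotype as Igfbp2 did. The part of these genes in the Igfbp2 difference was not tested.

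Igf2r was the gene that fell. It was at 216.7 and 209.6 normalised counts in uninjured Foxj1-Olig2-tdT libraries against 461.3 and 457.5 in uninjured Foxj1-tdT libraries. The 1 dpi libraries had 130.9 and 301 for Foxj1-Olig2-tdT, with 314.8 and 315 for Foxj1-tdT. The 5 dpi libraries had 121.6 and 167.1 for Foxj1-Olig2-tdT, with 462.6 and 390.8 for Foxj1-tdT. The genotypes did not overlap at any of the 3 times, which says little with 2 libraries a group, and at 1 dpi they lay close. The log2 fold change passed the test at 5 dpi alone (-1.57 ± 0.41, adjusted p = 0.0408). It was -1.10 ± 0.41 uninjured (adjusted p = 0.134) and -0.66 ± 0.41 at 1 dpi (adjusted p = 0.47), and leaving out a library ended the 5 dpi call in 8 of 12 cases. Bulk values cannot tell fewer cells of a type from less RNA per cell. Igf2r overlaps the antisense gene Airn, and Igf1 and Igf2 overlap Igf1os and Igf2os. The sources used here do not say whether strand was used in counting, so reads of these partners cannot be told apart.

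**Figure D1:**
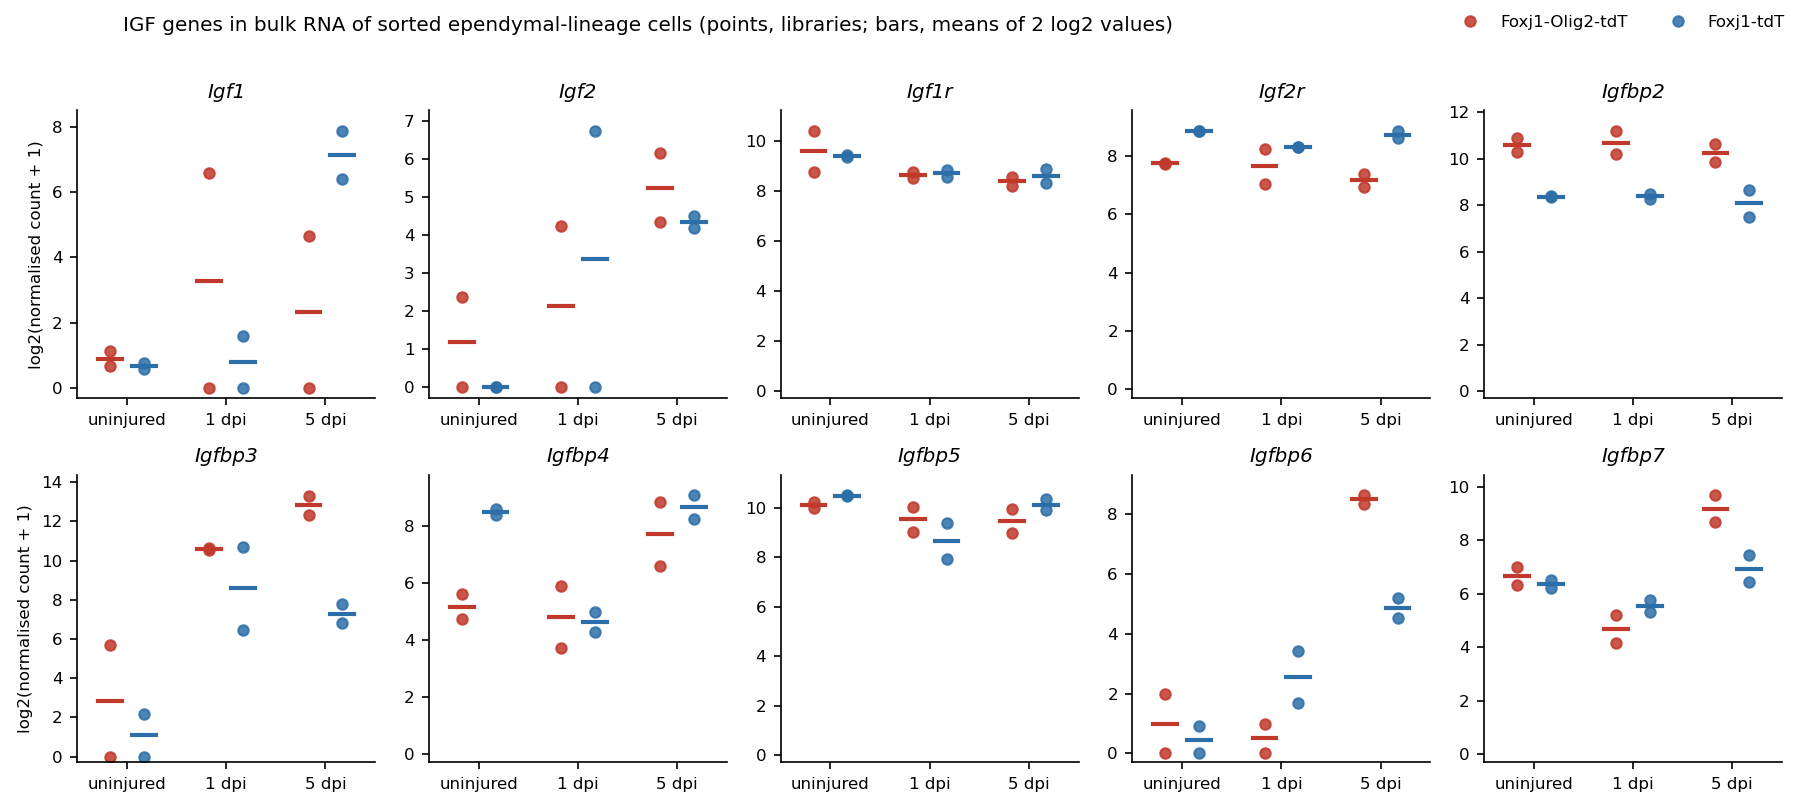
Bulk RNA values of the 10 genes, log2(normalised count + 1) on the vertical axis, by time on the horizontal axis, with Foxj1-Olig2-tdT in red left of Foxj1-tdT in blue. Points are libraries (2 a group) and bars are the means of the 2 log2 values; Igfbp2 is higher in red at every time, and Igfbp3, Igfbp6 and Igfbp7 are highest in the 5 dpi Foxj1-Olig2-tdT libraries.

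Among the 10 genes, 3 binding proteins were read at their highest in Foxj1-Olig2-tdT cells at 5 dpi. Igfbp3, the main IGF carrier of blood plasma, had values of 0 and 50.7 uninjured, then 1498.8 and 1597.3 (1 dpi) and 5121 and 10243.7 (5 dpi) among Foxj1-Olig2-tdT libraries. In Foxj1-tdT libraries it had 0 and 3.5 uninjured, then 87.6 and 1654.1 (1 dpi) and 110.7 and 220.7 (5 dpi). All injured libraries lay above all uninjured ones, and the 1 dpi Foxj1-tdT pair was the widest.

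Igfbp3 rose in every comparison of an injured with an uninjured group. Its log2 fold change was 9.98 ± 1.73 at 5 dpi (adjusted p = 0.00179) and 7.75 ± 1.73 at 1 dpi (adjusted p = 0.0241) in Foxj1-Olig2-tdT, and 6.21 ± 1.73 at 5 dpi (adjusted p = 0.0278) and 7.50 ± 1.73 at 1 dpi (adjusted p = 0.0107) in Foxj1-tdT. The fold between genotypes at 5 dpi, 5.53 ± 1.73, did not pass the test (adjusted p = 0.0802). Without the second 1 dpi Foxj1-tdT library the 1 dpi change there was 5.38 and the call was lost (adjusted p = 0.0863), as it was without the first uninjured Foxj1-tdT library (adjusted p = 0.0834). The 5 dpi call in Foxj1-tdT was lost on leaving out 4 of the 12 libraries, each in turn, and the 1 dpi call in Foxj1-Olig2-tdT on leaving out 3, with changes of 4.90 to 10.6 there.

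Igfbp6, a binding protein that prefers IGF2, was at 0 and 3 uninjured, then 0 and 1 (1 dpi) and 393.3 and 323.8 (5 dpi) among Foxj1-Olig2-tdT libraries. In Foxj1-tdT libraries it was at 0 and 0.9 uninjured, then 9.6 and 2.2 (1 dpi) and 35.9 and 22.2 (5 dpi). It was near the floor until 1 dpi and clearly read at 5 dpi in both genotypes. In Foxj1-Olig2-tdT it rose at 5 dpi by 7.48 ± 1.04 over uninjured (adjusted p = 0.000456) and by 7.98 ± 1.04 over 1 dpi (adjusted p = 0.000826), on the log2 scale. In Foxj1-tdT it rose by 4.41 ± 1.04 at 5 dpi over uninjured (adjusted p = 0.0135). The fold between genotypes at 5 dpi was 3.61 ± 1.04 (adjusted p = 0.0591).

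Igfbp7, a secreted relative that binds IGFs weakly and is abundant around blood vessels, was at 125.6 and 80.2 uninjured, then 17 and 35.9 (1 dpi) and 817.6 and 406.3 (5 dpi) among Foxj1-Olig2-tdT libraries. In Foxj1-tdT libraries it was at 73.2 and 90.6 uninjured, then 53.5 and 38.9 (1 dpi) and 173.8 and 85.1 (5 dpi). The 1 dpi libraries were the lowest in both genotypes. In Foxj1-Olig2-tdT it rose at 5 dpi over uninjured (2.51 ± 0.63, adjusted p = 0.0134) and over 1 dpi (4.49 ± 0.63, adjusted p = 0.00131). The change over uninjured was 2.01 without the first 5 dpi library (adjusted p = 0.111) and 2.19 without the second uninjured one (adjusted p = 0.0527). The fold between genotypes at 5 dpi was 2.24 ± 0.63 (adjusted p = 0.056).

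Of the 10 IGF genes, 3 rose and 0 fell in Foxj1-Olig2-tdT at 5 dpi over uninjured, a share near the 31.2% of all genes called there (17.2% higher and 14% lower). At 1 dpi over uninjured 1 rose and 0 fell, where 8.09% of all genes were called (5.93% higher and 2.16% lower). At 5 over 1 dpi 2 rose and 0 fell, where 13.9% were called (5.95% higher and 7.93% lower). The median log2 fold change of the 10 at 5 dpi over uninjured was 1.96, against 0.12 for all tested genes. The calls of Igfbp3 and Igfbp6 over uninjured, and of Igfbp6 and Igfbp7 over 1 dpi, passed in all 18 alternatives.

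Markers of ependymal cells, of other cell types and of division moved in the same libraries. The ependymal list (10 of 10 genes in the table) summed to 0.0838% and 0.0639% of the 5 dpi Foxj1-Olig2-tdT libraries, against 1.07% and 1.03% uninjured. In Foxj1-tdT it summed to 0.216% and 0.257% at 5 dpi, against 0.822% and 0.829% uninjured. The fibroblast list (5 of 7 genes in the table) summed to 0.083% and 0.0704% of the 5 dpi Foxj1-Olig2-tdT libraries, against 0.00726% and 0.00222% of the uninjured ones, and to 0.0527% and 0.037% of the 5 dpi Foxj1-tdT libraries against 0.00308% and 0.0027% of the uninjured ones. Col1a1, a collagen of fibroblasts, was at 2467.9 and 2583.2 in the 5 dpi Foxj1-Olig2-tdT libraries while Dcn, a fibroblast proteoglycan, was at 1.2 and 0. In 1 Foxj1-tdT library at 1 dpi, that with Igfbp3 at 87.6, Dcn was at 13599.8, against 0.5 in its replicate. The pericyte list (4 of 7 genes in the table) was at 0.00105% and 0.000842% of the 5 dpi Foxj1-Olig2-tdT libraries, against 0.000174% and 6.05e-05% of the uninjured ones, and was higher still at 1 dpi (0.0031% and 0.00219%). In Foxj1-tdT it was at 0.00131% and 0.00322% at 5 dpi, against 0.000936% and 0.00126% uninjured. The endothelial list (4 of 8) was at 0.0012% and 0.00172% of the 5 dpi Foxj1-Olig2-tdT libraries, against 0.00114% and 0.00112% of the uninjured ones. In Foxj1-tdT it was at 0.000394% and 0.000646% at 5 dpi, against 0.00183% and 0.00203% uninjured. Its member Flt1, a VEGF receptor, was at 69.6 and 168.3 in the 5 dpi Foxj1-Olig2-tdT libraries, against 8.9 and 28.7 uninjured. The rest of that list together was lower at 5 dpi than uninjured, so Flt1 does not stand for it. The progenitor list was at 0.0765% and 0.0678% of the 5 dpi Foxj1-Olig2-tdT libraries and at 0.00976% and 0.0357% of the 5 dpi Foxj1-tdT libraries, but its members differed in direction. Sox10 was at 591.6 and 765.4 in the 5 dpi Foxj1-Olig2-tdT libraries and at 6.3 or less in the other 10. Olig1 was at 536.9 and 52.5 in Foxj1-Olig2-tdT at 5 dpi and at 64.6 and 1158.7 in Foxj1-tdT, and C1ql1 was at 9 and 2.2 against 100.3 and 300.4. The 5 cycling genes summed to 0.0727% and 0.161% of the 5 dpi Foxj1-Olig2-tdT libraries, against 0.000241% and 0.000137% of the uninjured ones. In Foxj1-tdT they summed to 0.0296% and 0.0166% at 5 dpi, against 0.0018% and 0.00198% uninjured. The part of any of these in the changes of Igfbp3, Igfbp6 and Igfbp7 was not tested.

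Igfbp4, which the protease PAPP-A cleaves to release IGF, and Igfbp5, which binds extracellular matrix, fell at 1 dpi in Foxj1-tdT. Igfbp4 was at 25.2 and 48.1 uninjured, then 12 and 57.5 (1 dpi) and 94.9 and 459.8 (5 dpi) among Foxj1-Olig2-tdT libraries. The Foxj1-tdT libraries had 332.2 and 382.1 uninjured, then 30.6 and 18.2 (1 dpi) and 301 and 534.4 (5 dpi). The Foxj1-Olig2-tdT libraries were thus already low uninjured, while the Foxj1-tdT libraries were low at 1 dpi alone. In Foxj1-tdT the log2 fold change was -3.86 ± 0.90 at 1 dpi over uninjured (adjusted p = 0.011) and 4.03 ± 0.90 at 5 over 1 dpi (adjusted p = 0.0302). Leaving out either uninjured Foxj1-tdT library or the second 1 dpi one ended the call at 1 dpi (adjusted p = 0.0654, 0.077 and 0.0628), and leaving out any of the 6 Foxj1-tdT libraries ended that at 5 over 1 dpi (adjusted p up to 0.174). The uninjured difference between genotypes, -3.32 ± 0.90, missed the threshold (adjusted p = 0.0522).

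Igfbp5 was at 1213.8 and 1017.1 uninjured, then 1044.8 and 523.9 (1 dpi) and 505.4 and 998 (5 dpi) among Foxj1-Olig2-tdT libraries. In Foxj1-tdT libraries it was at 1454 and 1419.6 uninjured, then 240.7 and 671.4 (1 dpi) and 972.2 and 1298.8 (5 dpi). In the Foxj1-tdT libraries the ependymal list summed to 0.31% and 0.209% at 1 dpi, against 0.822% and 0.829% uninjured. The part of this in the falls of Igfbp4 and Igfbp5 was not tested. The log2 fold change of Igfbp5 at 1 dpi over uninjured in Foxj1-tdT, -1.83 ± 0.50, passed the test (adjusted p = 0.0222), and the Foxj1-Olig2-tdT groups overlapped. Without the second 1 dpi Foxj1-tdT library the change was -2.57 and was still called (adjusted p = 0.00906). Without the first it was -1.10 and the call was lost (adjusted p = 0.138), as it was without either uninjured Foxj1-tdT library (adjusted p = 0.108 and 0.101).

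Igf1 rose in Foxj1-tdT at 5 dpi. It was at 0.6 and 1.2 uninjured, then 0 and 94.7 (1 dpi) and 24.2 and 0 (5 dpi) among Foxj1-Olig2-tdT libraries, where 1 injured replicate of each time was listed at 0. Those of Foxj1-tdT had 0.7 and 0.5 uninjured, then 2 and 0 (1 dpi) and 233.3 and 83.9 (5 dpi). The log2 fold change at 5 dpi over uninjured in Foxj1-tdT was 6.46 ± 2.03 (adjusted p = 0.0449), and 11 of 18 alternatives ended the call. The microglia list (4 of 10 genes in the table) was at 0.00689% and 0.00858% of the 5 dpi Foxj1-tdT libraries and at 0.00755% and 0.00759% of the uninjured ones. The infiltrating myeloid list (3 of 8 genes in the table) was at 0.000249% and 0.000444% at 5 dpi, against 9.75e-06% and 0% uninjured. At 1 dpi in Foxj1-tdT, where Igf1 was at 2 and 0, that list was higher still (0.000804% and 0.000681%). The part of either list in the Igf1 change was not tested.

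Of the 10 IGF genes, 1 rose and 2 fell in Foxj1-tdT at 1 dpi over uninjured, where 27.4% of all genes were called (15.4% higher and 12% lower). At 5 dpi over uninjured 3 rose and 0 fell, where 23% were called (13.8% higher and 9.21% lower). At 5 over 1 dpi 1 rose and 0 fell, where 5.85% were called (2.74% higher and 3.11% lower). These shares are near those of all genes, or rest on 1 gene. With the uninjured Foxj1-tdT pair counted as 1 library, each of these calls was lost, the adjusted p lying between 0.0603 and 0.175.

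The other 2 genes passed no test, and Igf2 was read sparsely. Igf1r, the signalling receptor, was at 1330.5 and 432.9 uninjured, then 432.4 and 366.3 (1 dpi) and 373.2 and 291.4 (5 dpi) among Foxj1-Olig2-tdT libraries. In Foxj1-tdT libraries it was at 688.5 and 655 uninjured, then 450.6 and 374.1 (1 dpi) and 460.8 and 314.9 (5 dpi). All injured Foxj1-tdT libraries lay below the uninjured pair, and its largest change, -1.20 ± 0.46 at 5 dpi over uninjured in Foxj1-Olig2-tdT, did not pass the test (adjusted p = 0.0724). Igf2 was listed at 0 in 5 of 12 libraries, among them both uninjured Foxj1-tdT libraries. Its highest values were 105.7 in 1 Foxj1-tdT library at 1 dpi, whose replicate was at 0, and 70.3 in 1 Foxj1-Olig2-tdT library at 5 dpi, and it passed no test.

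**Figure D2:**
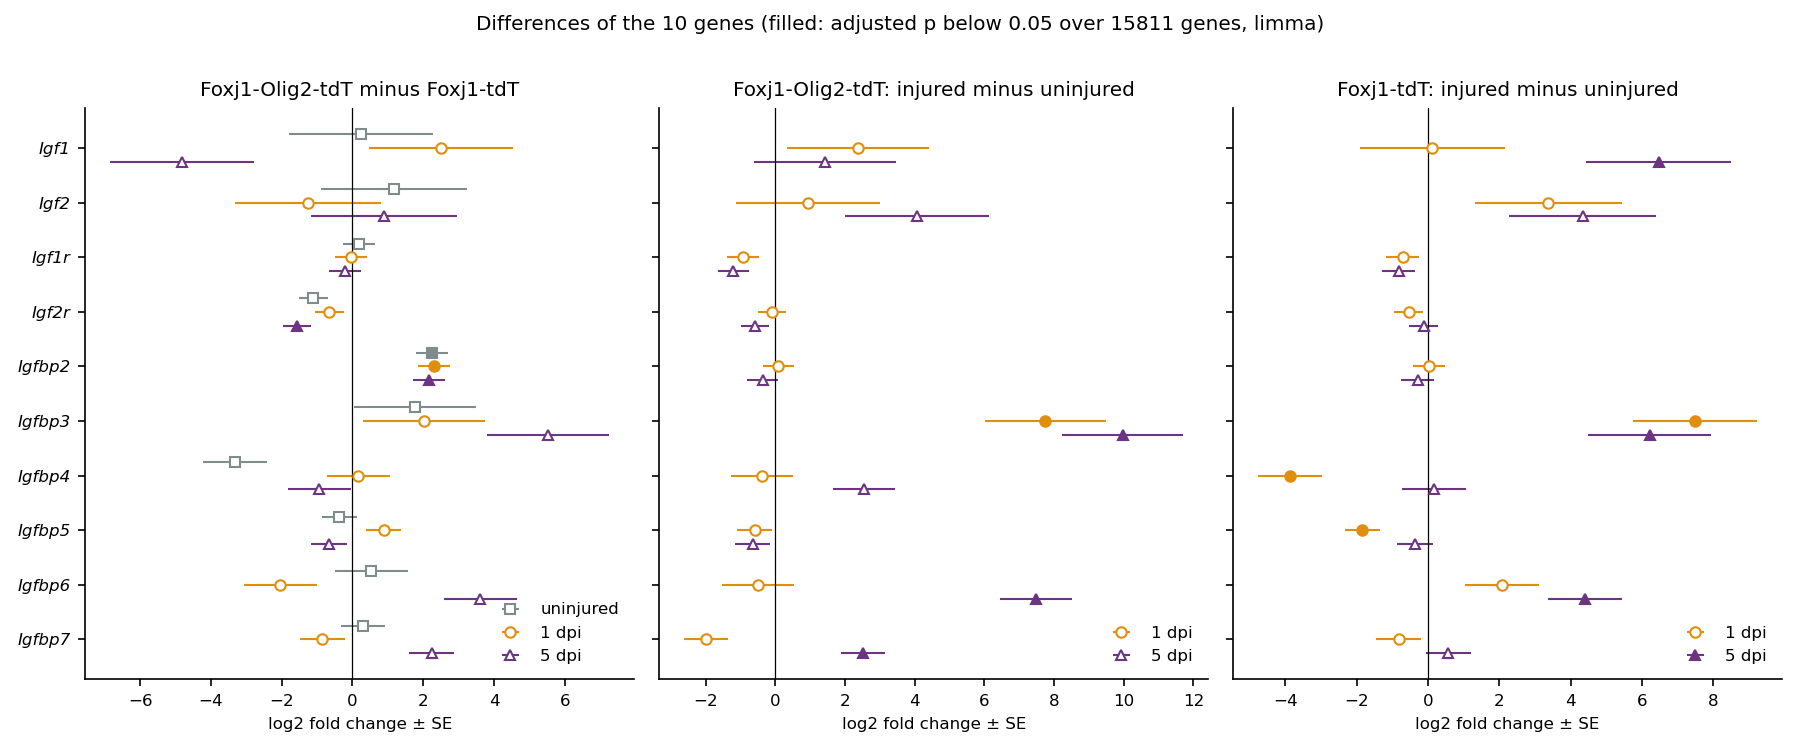
Log2 fold change with its SE (horizontal axis) for each gene (rows) between genotypes at 3 times, and between injured and uninjured libraries within each genotype. Filled symbols passed the limma test at an adjusted p under 0.05 over 15811 genes; Igfbp2 is filled at all 3 times in the left panel, and Igfbp3 in both other panels at both times.

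Whether injury changed the genes differently in the 2 genotypes was tested as an interaction. None of the 10 genes passed at 1 dpi or at 5 dpi, where 2.77% and 7.28% of all genes did. At an unadjusted p under 0.05 there was 1 at 1 dpi, Igfbp4 (3.48 ± 1.27, unadjusted p = 0.0208, adjusted p = 0.178), and 0 at 5 dpi. The nearest at 5 dpi were Igfbp7 (1.94 ± 0.90, unadjusted p = 0.056) and Igfbp6 (3.08 ± 1.47, unadjusted p = 0.0628). The higher 5 dpi values of Igfbp3, Igfbp6 and Igfbp7 in Foxj1-Olig2-tdT therefore passed neither the test between genotypes nor that of the interaction.

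The genes of the pathway around these 10 were taken from a list of 33, of which 28 were in the table and tested. Between genotypes, 1 rose and 0 fell uninjured, 0 rose and 1 fell at 1 dpi, and 0 passed at 5 dpi, where 0 also passed in the interaction. Of all genes, 7.79% were called uninjured, 1.84% at 1 dpi, and 9.23% at 5 dpi, with 7.28% in that interaction. Irs2, an adaptor that links IGF1R to PI3K, was at 52.8 and 62.9 in the Foxj1-Olig2-tdT libraries at 1 dpi and at 323.4 and 353.9 in those of Foxj1-tdT (-2.53 ± 0.43, adjusted p = 0.0242). The groups did not overlap, which says little with 2 libraries a group.

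With injury, 6 of 28 pathway genes rose and 2 fell at 5 dpi over uninjured in Foxj1-Olig2-tdT, and 5 rose and 2 fell in Foxj1-tdT. These counts are near the shares of all genes called, 31.2% in Foxj1-Olig2-tdT and 23% in Foxj1-tdT. Akt1 rose in both, to 591.3 and 759.1 at 5 dpi in Foxj1-Olig2-tdT against 114.1 and 129.1 uninjured (2.46 ± 0.38, adjusted p = 0.000915), and to 421.6 and 506.3 in Foxj1-tdT against 143.1 and 161.6 uninjured (1.60 ± 0.38, adjusted p = 0.0143). Ghr, the growth hormone receptor that in liver drives Igf1, rose in Foxj1-Olig2-tdT to 1101.2 and 1638.1 against 372.9 and 94.5 uninjured (2.83 ± 0.56, adjusted p = 0.00371). Grb14, an adaptor that dampens insulin receptor signalling, fell in both genotypes, by 1.00 ± 0.23 on the log2 scale in Foxj1-Olig2-tdT (adjusted p = 0.00795) and by 0.94 ± 0.23 in Foxj1-tdT (adjusted p = 0.015). Pdk1 is the symbol of a pyruvate dehydrogenase kinase of metabolism, not of the PI3K-dependent kinase Pdpk1, although it stood in the list. Pik3ca, a catalytic subunit of PI3K, and Pdk1 were the genes with the lowest adjusted p in Foxj1-tdT, at 1.64 ± 0.35 (adjusted p = 0.00817) and -1.68 ± 0.39 (adjusted p = 0.012).

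At 1 dpi over uninjured, 1 pathway gene rose and 1 fell in Foxj1-Olig2-tdT, and 3 rose and 1 fell in Foxj1-tdT. The first is near the 8.09% of all genes called in Foxj1-Olig2-tdT, and the second lies below the 27.4% called in Foxj1-tdT. In Foxj1-Olig2-tdT Ghr rose (2.30 ± 0.56, adjusted p = 0.0336), and Foxo3, a transcription factor that AKT inhibits, fell by 1.22 ± 0.32 (adjusted p = 0.0444). In Foxj1-tdT they were Akt1 (2.07 ± 0.38, adjusted p = 0.00346), Shc1, an adaptor to the MAP kinase pathway (2.69 ± 0.51, adjusted p = 0.00394), Pappa, and Grb14, which fell by 1.20 ± 0.23 (adjusted p = 0.00394). Pappa, named after its values were seen, encodes the protease PAPP-A that cleaves IGFBP4. It was at 3.2 and 0 in the 1 dpi Foxj1-Olig2-tdT libraries, where Igfbp4 was at 12 and 57.5. In those of Foxj1-tdT it was at 175.3 and 171.4, where Igfbp4 was at 30.6 and 18.2, and Pappa was listed at 0 in both uninjured ones. Cleavage of the IGFBP4 protein was not measured, and a link between Pappa and Igfbp4 was not tested. Between 5 and 1 dpi, 3 pathway genes rose in Foxj1-Olig2-tdT and 2 in Foxj1-tdT, and 0 fell, where 13.9% and 5.85% of all genes were called in these genotypes. Foxo3 rose in both genotypes, by 1.59 ± 0.32 in Foxj1-Olig2-tdT (adjusted p = 0.00878) and 1.30 ± 0.32 in Foxj1-tdT (adjusted p = 0.0424). Htra1, a secreted protease, rose by 2.51 ± 0.60 (adjusted p = 0.021) and Akt1 by 1.31 ± 0.38 (adjusted p = 0.047) in Foxj1-Olig2-tdT, and Pik3ca by 1.42 ± 0.35 (adjusted p = 0.0428) in Foxj1-tdT.

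For the 4 genes of widest range between group means, the genes most alike across the 12 libraries were sought among 11909 genes, by Pearson's r of the log2 values. They were Thoc6 (r = 0.966) for Igfbp3, and Akr1a1 (r = 0.973) and Snx18 (r = 0.949) for Igfbp6. For Igf1 they were Ntsr2 (r = 0.849) and Ankra2 (r = 0.849), and for Igf2 Rab10 (r = 0.908) and Tmed5 (r = 0.903). The 12 libraries fall into 6 groups and these are the highest of very many values, so they describe these libraries only.

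Single-cell RNA placed the genes in cell types. The matrix held 3500 cells under 6 library codes (017, 018, 019, 020, 072 and 073), which the sources used here do not tie to samples, so no genotype or time is compared. The deposited cell table kept 3285 cells, with 716 to 52590 unique molecular identifiers (UMIs) and a median of 5722, and left out 215. No doublet caller was run, and 7 barcodes occurred under more than 1 code. Clustering all cells without the 10 genes gave 18 clusters. In 14 of them, 3098 cells, at least 9 of 10 ependymal markers were found in at least 25% of cells. An oligodendrocyte progenitor-like cluster had 59 cells and a mature oligodendrocyte-like cluster 126. The others are called by their leading genes, here a Lyz2 Ctss cluster of 187 cells with Lyz2, S100a8 and S100a9 of infiltrating myeloid cells and C1qa of microglia among its top genes (summed lists at 35300 and 17800 CPM), and a Col1a1 Bglap2 cluster of 30. Levels are CPM, a gene's UMIs scaled to a fixed total, of a cluster's summed UMIs, with exact 95% Poisson intervals that cover counting error only.

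Igfbp2 and Igfbp5 were read mainly in the ependymal clusters. Across the 14 clusters together Igfbp2 was at 63.4 CPM (59.9 to 67.0) and Igfbp5 at 75.6 CPM (71.8 to 79.5). In the mature oligodendrocyte-like cluster they were at 2.81 CPM (0.766 to 7.20) and 4.22 CPM (1.55 to 9.18), and in the Lyz2 Ctss cluster at 3.52 CPM (1.52 to 6.94) and 3.08 CPM (1.24 to 6.35). In the progenitor-like cluster Igfbp2 was at 21.2 CPM (9.70 to 40.3) and Igfbp5 at 7.07 CPM (1.46 to 20.7). The Gfap S100a6 ependymal cluster, without 2 cells described below, had Igfbp2 at 18.2 CPM (12.4 to 25.9). Igfbp2 thus did not set every ependymal cluster apart from the progenitor-like one. A UMI of Igfbp2 was found in 1.59% of mature oligodendrocyte-like cells (median 9677.5 UMIs a cell) and in 59.8% of the Sntn Caly ependymal cluster (median 5747), so the deeper cells had the smaller share.

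Igfbp2 differed among ependymal clusters and codes. It was at 176 CPM (149 to 207) in the Sntn Caly cluster and 169 CPM (152 to 187) in the Ppp1r1b Slc35f4 cluster, both nearly all from codes 019 and 020. In the Gchfr Wwc1 cluster, mostly of codes 018 and 072, it was at 30.3 CPM (24.6 to 36.9). By code, over kept cells, it was at 182 CPM (163 to 203) in 019 and 127 CPM (112 to 143) in 020, against 33.6 to 44.3 CPM in the other 4. Within the 14 ependymal clusters alone it was at 182 CPM in 019, 160 CPM in 020, 73.6 CPM in 073 and 33.7 to 42.8 CPM in 017, 018 and 072. Codes 019, 020 and 073 thus stood above the other 3 once oligodendrocyte-lineage cells were left out. Igfbp5 in the same cells spanned 57.7 to 98.2 CPM over the 6 codes and Igf1r 33.8 to 49.1 CPM, narrower ranges.

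**Figure D3:**
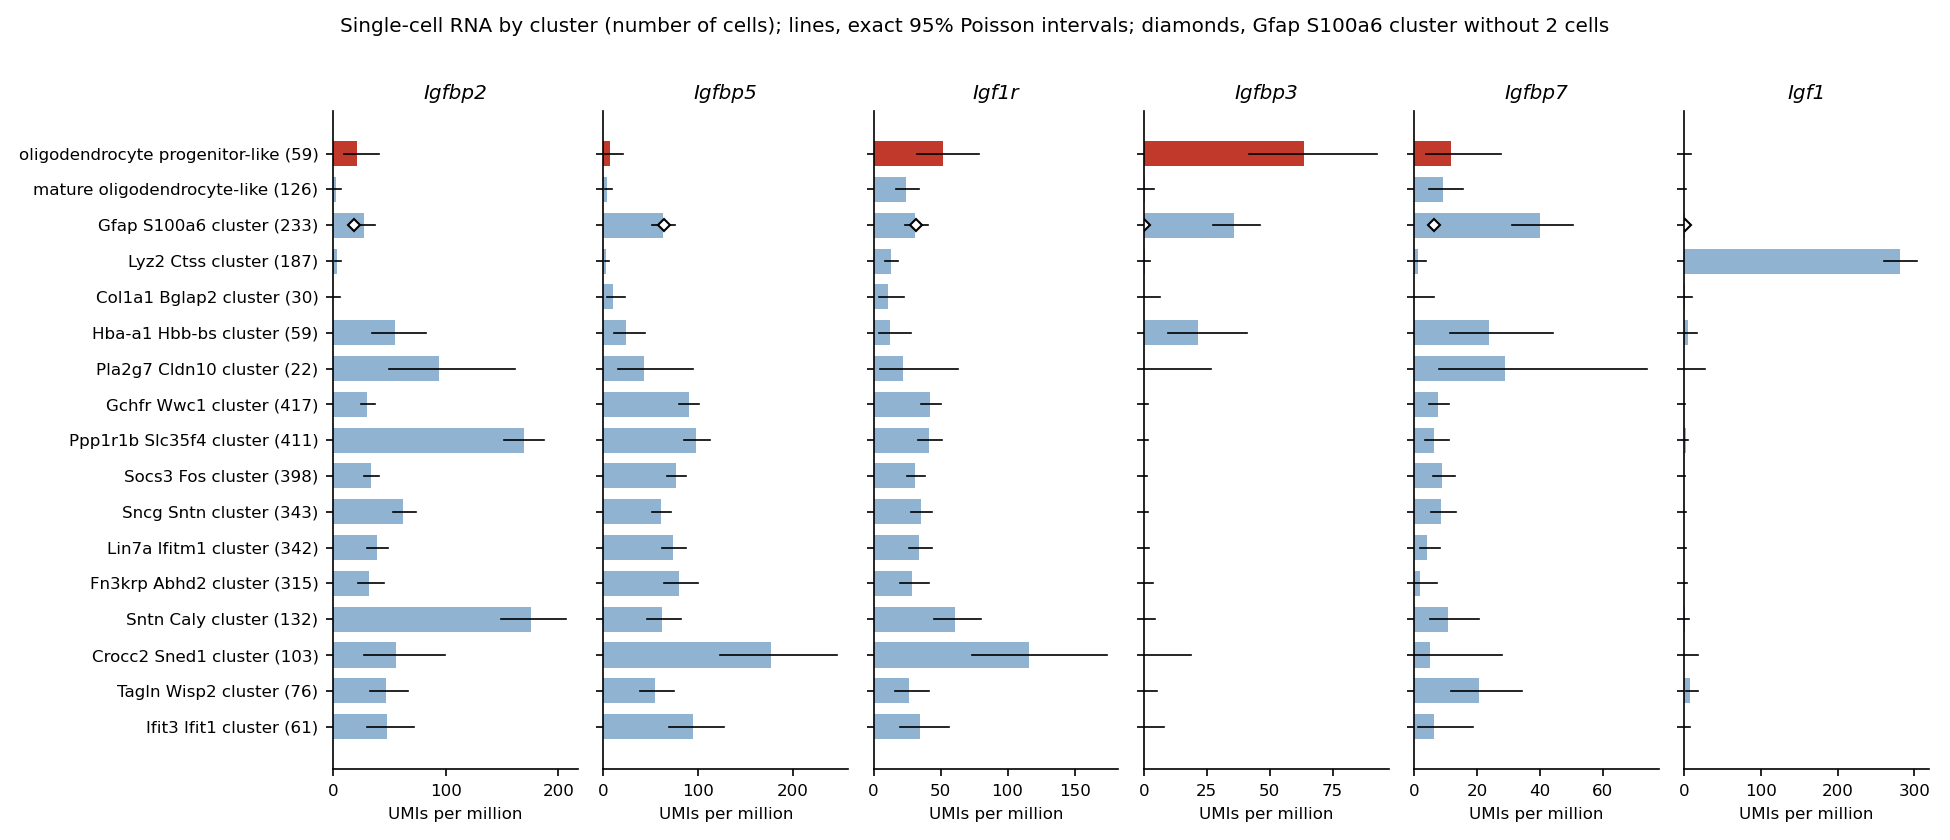
CPM of summed UMIs (horizontal axis) of 6 genes in the clusters described (rows, with their number of cells; 1 of the 18 is not drawn); lines are exact 95% Poisson intervals and diamonds the Gfap S100a6 cluster without 2 cells. Igfbp3 is highest in the progenitor-like cluster (red, 63.6 CPM) and Igf1 in the Lyz2 Ctss cluster (282 CPM), and the Gfap S100a6 values of Igfbp3 and Igfbp7 drop without those 2 cells.

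Igfbp3 was the gene of the progenitor-like cluster. That cluster gave 27 UMIs over 14 of its 59 cells, 63.6 CPM (41.9 to 92.6), from codes 020 and 073 in nearly all cases. The Ppp1r1b Slc35f4 ependymal cluster gave 0 UMIs in 411 cells of median 5042 UMIs, for which a floor of 3 counts is 1.40 CPM, and the mature oligodendrocyte-like cluster gave 1 UMI. The only other clusters with more than 1 UMI were a Hba-a1 Hbb-bs cluster that also held cycling genes (9 UMIs, 21.5 CPM, 9.84 to 40.9) and the Gfap S100a6 cluster (62 UMIs). The Hba-a1 Hbb-bs cluster, counted among the 14 ependymal ones, also had the progenitor list at 1660 CPM. The other ependymal clusters had that list at 607 CPM or less.

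Those 62 UMIs all came from 1 kept cell of code 020. This cell had 12157 UMIs, with 91 of Col1a1, 80 of Col3a1, 32 of Dcn and 0 of Foxj1, and it also gave 38 UMIs of Igfbp4, 38 of Igfbp7 and 15 of Igfbp2. A second kept cell, of code 073 with 16473 UMIs and 0 of Foxj1, gave 37 of the 41 UMIs of Igfbp6 in that code and 20 of its 59 UMIs of Igfbp7. Without the 2 cells Igfbp3 was at 5.90 CPM in code 020 (36.2 with them) and Igfbp6 at 1.26 CPM in code 073 (12.9 with them). Igfbp4 in code 020 was then at 3.93 CPM in place of 22.5, and Igfbp7 at 11.3 CPM in place of 29.8. Igfbp6 had 14 UMI-positive cells of 3285 kept. The high values of Igfbp4 in code 020 and of Igfbp6 in code 073 therefore rest on single cells. Those of Igfbp3 and Igfbp7 were raised by them but not made by them alone. Without the 2 cells, code 020 still had 12 UMIs of Igfbp3 over 9 cells and 23 of Igfbp7 over 19 cells. Code 073 still had Igfbp7 at 12.3 CPM (8.76 to 16.8).

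Igf1 was found almost entirely in cells that the deposited table leaves out. The Lyz2 Ctss cluster, 185 of whose 187 cells were left out, gave 640 of 664 Igf1 UMIs, 282 CPM (260 to 304), in 63.6% of its cells (median 12009 UMIs). In the 14 ependymal clusters it was at 1.17 CPM (0.740 to 1.75), and in the progenitor-like cluster 0 UMIs were read, with a floor of 7.07 CPM. The kept cells gave 24 UMIs, of which 11 were in code 020. In that code the cluster had 9.8 Igf1 UMIs per 1000 of Lyz2, a myeloid gene (9.04 to 10.6). The other kept cells of the code had 12.1 (6.04 to 21.7, from 11 UMIs), alike within counting error. In code 018 the ratio was 10.4 (6.85 to 15.1) in the cluster and 29.3 (10.7 to 63.7, from 6 UMIs) outside it. The Tagln Wisp2 ependymal cluster had Igf1 at 8.34 CPM (3.06 to 18.1), from 6 UMIs. The source of the Igf1 UMIs in kept cells was not tested. Igf2 gave 3 UMIs in 3500 cells, too few to place.

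The receptors were spread more evenly. Igf1r was at 36.9 CPM (34.2 to 39.6) in the ependymal clusters, 51.8 CPM in the progenitor-like and 24.6 CPM in the mature oligodendrocyte-like cluster. Igf2r was at 10.2 CPM (8.80 to 11.7) in the ependymal clusters and 10.5 CPM in the mature oligodendrocyte-like one, and 1 UMI was read in the progenitor-like cluster (2.36 CPM). By code Igf2r was lowest in 020, at 2.44 CPM (0.793 to 5.70), against 7.90 to 12.4 CPM in the other 5. The Crocc2 Sned1 cluster, which stood highest for Igf1r (116 CPM) and Igfbp5 (177 CPM), had a median of 1749 UMIs a cell, and its values rest on 23 and 35 UMIs.

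**Figure D4:**
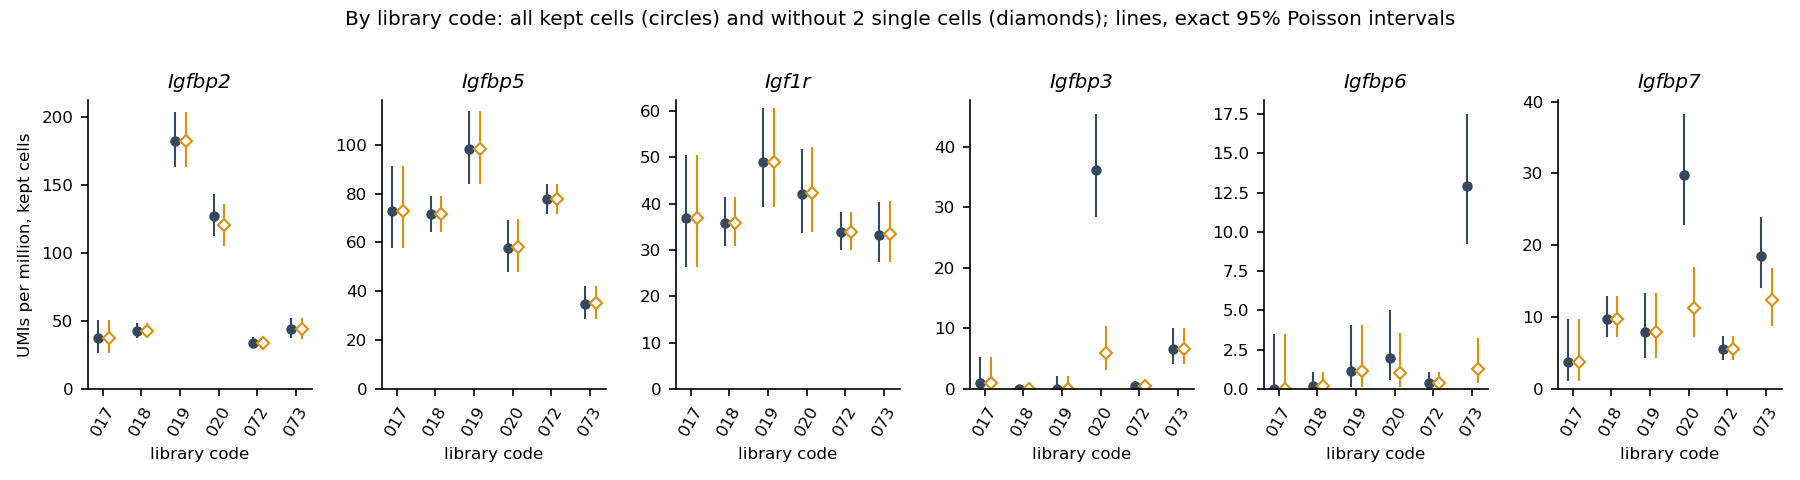
CPM of summed UMIs in kept cells (vertical axis) of 6 genes by library code (horizontal axis), with exact 95% Poisson intervals, for all kept cells (circles) and without 2 single cells (diamonds). Igfbp2 is high in 019 and 020 either way, while Igfbp3 in 020 and Igfbp6 in 073 drop to 5.90 and 1.26 CPM without the 2 cells.

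Among the pathway genes in single cells, Pik3r1, the regulatory subunit of PI3K, was highest in the progenitor-like cluster (306 CPM, against 36.0 CPM over kept cells), as was Igf2bp3, an RNA-binding protein named for Igf2 mRNA (61.3 against 21.1 CPM). Grb14 was highest in the mature oligodendrocyte-like cluster (498 against 98.0 CPM). Igfbpl1, a relative of the binding proteins, was highest in the Gfap S100a6 cluster (24.3 against 3.47 CPM), where 42 of its 75 UMIs lay. Igfbp1 and Igfals, which encode carriers made by the liver, gave 0 UMIs.

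Single-cell ATAC gave the open chromatin of the genes in 1084 cells of 1 uninjured sample, in 8 classes named by the authors. EP1, EP2 and EP3 had 301, 290 and 163 cells, ACNT1 and ACNT2 111 and 62, OPC 67, VEC 50 and PER 40. Peaks at the starts of marker genes were highest in EP3 for the ependymal list, ACNT1 for astrocytes, OPC for oligodendrocyte progenitors, VEC for endothelium and PER for pericytes. The progenitor list set OPC only slightly apart, at 164 CPM against 144 in ACNT2 and 136 in ACNT1, and the pericyte list PER likewise, at 49.9 CPM against 42.7 in ACNT2. The fibroblast list, of which 1 of 7 genes had a start peak, was also highest in PER, at 81.7 CPM against 20.6 or less in the other classes. Median cut sites per cell ran from 7249.5 in VEC to 46787.5 in EP2. Levels are CPM, cut sites scaled to the same fixed total per class. With 1 sample there is no test, and the 2 ends of a fragment are counted apart, so intervals are given only for shares of cells. EP3, ACNT2 and OPC were of like depth (medians 30192, 34498.5 and 37481), and shares are set side by side for these alone.

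The peak over the Igfbp3 start was open mainly in OPC. This peak (mm10 chr11:7213367-7215012), which holds the first printed promoter with its 2 E-box matches, had 53.9 CPM in OPC against 1.29 CPM in EP1 to EP3 pooled, a ratio of 41.9. It was read in 59.7% of OPC cells (exact binomial 95% interval 47.0% to 71.5%), in 6.45% of ACNT2 cells (1.79% to 15.7%) and in 1.84% of EP3 cells (0.381% to 5.28%). VEC and PER had 19.7 and 21.2 CPM, from 9 and 20 cut sites. The cells are those of an uninjured cord, labelled non-neuronal, and nothing in the labels says that the OPC came from ependymal cells.

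The Igfbp2 start lay in a peak open in several classes. The peak (chr1:72823374-72826970) had 28.1, 30.3 and 31.6 CPM in EP1, EP2 and EP3, 25.4 and 39.1 in ACNT1 and ACNT2, 15 in OPC, 11 in VEC and 6.37 in PER. It was read in 37.4% of EP3 cells (30% to 45.3%), 41.9% of ACNT2 cells (29.5% to 55.2%) and 17.9% of OPC cells (9.61% to 29.2%). Its neighbour on chromosome 1, Igfbp5, transcribed toward it from the other strand, had a start peak (chr1:72868957-72875466) at 112 to 117 CPM in the EP classes, 53.3 and 54.1 in ACNT1 and ACNT2, 64.1 in OPC, 13.1 in VEC and 162 in PER. Both peaks were lower in OPC than in the EP classes.

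Igfbp6 and Igfbp7 had their highest peaks in VEC and PER. A peak before Igfbp6 (chr15:102143181-102143560) had 19.7 CPM in VEC and 25.5 in PER, from 9 and 24 cut sites, and at most 0.589 in the EP classes. It was read in 0 of 67 OPC cells, with an exact interval reaching 5.36%. No peak held the Igfbp6 start, the third printed promoter. A peak inside Igfbp7 (chr5:77357584-77358887) had 180 CPM in VEC and 47.8 in PER, against 9.44 in EP1 to EP3 pooled, and the start peak of Igfbp7 had 35.0, 52.0 and 8.76 CPM in the same classes. For Igfbp4 the start peak (chr11:99039673-99041895) had 38.6 CPM in OPC, 42.2 in ACNT2, 40.3 in PER and 6.79 to 16 in the EP classes.

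**Figure D5:**
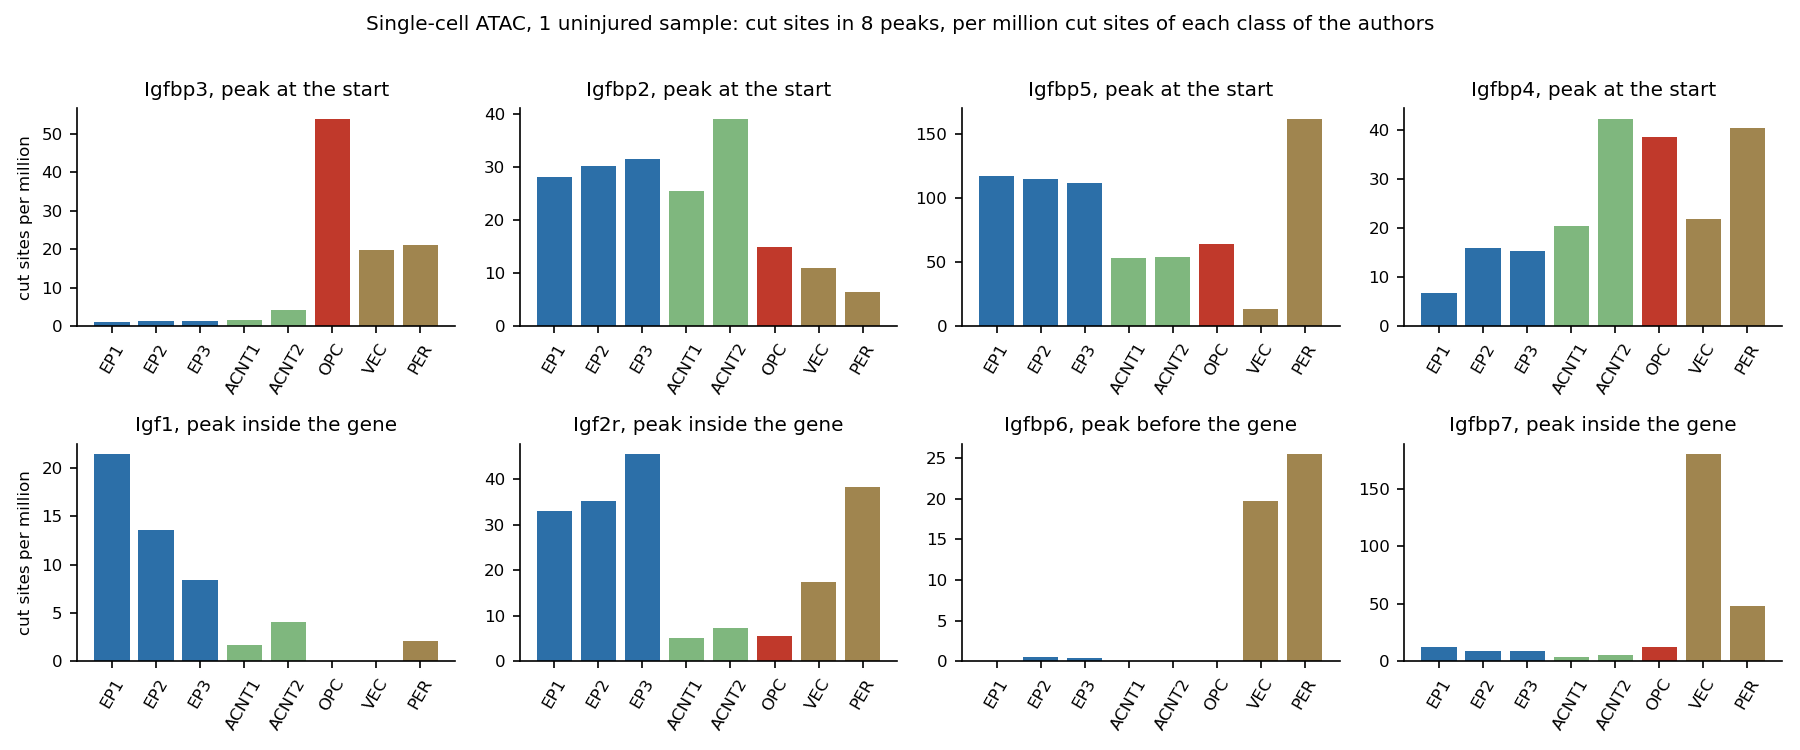
CPM of cut sites (vertical axis) in 8 peaks near the genes for each of the authors' 8 classes (horizontal axis; blue EP, green ACNT, red OPC, brown VEC and PER) of 1 uninjured sample. The Igfbp3 start peak is highest in OPC at 53.9, the Igf1 peak in EP1 at 21.4, and the Igfbp6 and Igfbp7 peaks in PER and VEC at 25.5 and 180.

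Igf1 and Igf2r had peaks inside the gene that were more open in the EP classes. The 7 peaks of Igf1 summed to 67.0, 53.3 and 34.9 CPM in EP1, EP2 and EP3 against 6.30 in OPC, 10.1 and 9.08 in ACNT1 and ACNT2, 13.1 in VEC and 32.9 in PER. A peak 2130 bases after the start (chr10:87862752-87863729) had 13.7 CPM in EP1 to EP3 pooled and 0 cut sites in OPC, while the peak at the start had 3.94 CPM in EP1 to EP3 pooled and 5.51 in OPC. The ependymal clusters of the RNA samples had Igf1 at 1.17 CPM beside these open sites. The 7 peaks of Igf2r summed to 113, 125 and 147 CPM in EP1, EP2 and EP3, against 81.4 in OPC and 30.4 and 47.7 in ACNT1 and ACNT2, with the start peak alike in EP (24.5 CPM pooled) and OPC (24.8 CPM).

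The 36 peaks of Igf1r summed to 327 to 418 CPM in all 8 classes, the flattest of the 10 genes, and the 1 peak of Igf2 held 90 cut sites in all, at most 5.51 CPM in a class. Counting peaks with at least 20 cut sites, 4 of 60 near the genes were at least 4-fold higher in OPC than in EP1 to EP3 pooled, against 9.73% of 86528 peaks. In EP1 to EP3 over OPC there were 17 of 60, against 29.9%, and in VEC and PER pooled over EP1 to EP3 10 of 60, against 7.19%. Peaks of 1 gene share their locus and are not independent, and 36 of the 67 belong to Igf1r.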

How the data were processed

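Bulk values are the authors' deposited normalised counts (a signal with decimals, whose normalisation is not given in the sources used here), so no count model was used. The single-cell RNA matrix holds the deposited UMI counts and the single-cell ATAC matrix the deposited cut-site counts in the authors' peaks on mm10. The submitters' processing notes name Cell Ranger and Cell Ranger ATAC with no version, and Bowtie2 and SAMtools with no stated role.

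Bulk values of genes at 10 or more in at least 2 libraries were fitted as log2(value + 1) with limma 3.58.1 (R 4.3.3, trended, 6 group means, 11 contrasts, 6 residual degrees of freedom), a script tested on simulated data. Clusters of cells were found without the 10 genes by Leiden at resolution 1 in scanpy 1.11.5, on 2000 variable genes with 15 neighbours in 30 components. Peaks within 2 kb of a gene were assigned to it.

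The genes and lists were chosen with earlier results of these data known. All 10 genes were named, with at most 3 called pathway genes of lowest adjusted p per contrast, the 2 genes most alike for the 4 of widest range (group mean of at least 50), and markers. Same-numbered replicates did not deviate together (15 pairs, r of -0.0296 to 0.0222), so no pairing was assumed. Bulk ATAC was not analysed here, and 2 genes that the naming rule gives and 1 cell cluster are not reported here. Intervals and floors (3 counts) cover counting error only. Pseudocount, filter, scaling, replicate block, left-out libraries, cell sets, windows and per-cell scaling were varied.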

Additional observations from a re-analysis of the deposited data

Results flagged for a closer look

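Igf1 was read in cells that the deposited cell table leaves out. These 215 cells held 640 of the 664 Igf1 UMIs of the matrix, 230 CPM (213 to 249), against 24 UMIs, 1.11 CPM (0.712 to 1.65), in the 3285 kept cells. The left-out cells lie outside the report's comparison of kept cells by library code, and their level was above that of the kept cells, which is why this value is listed. In 119 of the 215 left-out cells an Igf1 UMI was found. Of these, 1 was in the Col1a1 Bglap2 cluster and the rest were in the Lyz2 Ctss cluster.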

How the results depend on the processing

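No result reversed its direction. Counts of the 10 genes called moved as follows. With a pseudocount of 8 the count between genotypes was 2 uninjured and 5 at 5 dpi, that of 5 over 1 dpi in Foxj1-tdT was 2, and that of the interaction at 5 dpi was 1. Counting both uninjured Foxj1-tdT libraries as 1, it was 0 uninjured, 0 at 1 dpi and 1 at 5 dpi between genotypes, and 0 in each of the 3 comparisons within Foxj1-tdT. With the replicate block it was 2 between genotypes uninjured, 0 at 1 dpi, and 5 at 5 dpi over uninjured in Foxj1-Olig2-tdT, though the numbers do not pair the libraries. Leaving out 1 library each gave, between genotypes, 0 to 2 uninjured, 0 to 1 at 1 dpi and 0 to 5 at 5 dpi. Within Foxj1-tdT it gave 0 to 3 at 1 dpi, 0 to 3 at 5 dpi and 0 to 2 at 5 over 1 dpi, within Foxj1-Olig2-tdT 0 to 2, 3 to 4 and 2 to 3, and 0 to 0 in both interactions. The lone library left in a group is then assumed to vary like the others. In single-cell RNA, 8 genes reached 10 CPM in at least 1 code, and 5 without the 2 cells highest in Igfbp3 and Igfbp6, a choice made after seeing the data. The cause of each shift was not tested, except that fewer libraries leave fewer degrees of freedom. Quantile normalisation moved the median of all genes by -0.15 at 5 dpi over uninjured in Foxj1-Olig2-tdT and by -0.11 in Foxj1-tdT.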

Other observations

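Within the oligodendrocyte progenitor-like cluster, Igfbp3 was at 69.8 CPM in the cells of code 073 and at 37.8 CPM in those of code 020. In code 073, 8 of the 24 Igfbp4 UMIs came from 1 cell that also held 17 UMIs of the endothelial gene Cldn5. In code 018 the kept cells outside the Lyz2 Ctss cluster had 29.3 Igf1 UMIs per 1000 of Lyz2 (10.7 to 63.7, from 6 UMIs), against 10.4 (6.85 to 15.1) in that cluster.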
